A study of Mus musculus with 16 samples.

Results

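Collagens are the triple-helical proteins of the extracellular matrix, and 44 genes whose symbol has the form Col, number, a, number had a probe on the array used here, out of 22911 genes with a probe. They were picked by symbol alone, after each probe's RefSeq accession had been paired with its current mouse symbol. No gene was added or dropped for its expression, but the family was chosen with earlier results of these data known. The 44 genes carried 67 probes. Of these genes, 27 were bright enough to be tested, among 13727 genes tested in all, and 22 of the 27 lay well above background on all 16 arrays. By structure they were grouped into 11 fibrillar collagens, 6 chains of basement membrane collagen IV, 6 chains of collagen VI, 9 FACIT collagens (fibril-associated collagens with interrupted triple helices), 2 multiplexins, 3 chains of the network collagens VIII and X, 4 transmembrane collagens and 3 others.

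The arrays measured total RNA from the apex of the heart in 16 male C57Bl/6 mice, 4 hearts in each of 4 groups. The double knockouts (AKT1+AKT2 DKO) were homozygous for floxed alleles of both Akt1 (exons 6 and 7) and Akt2 (exons 5 and 6), the AKT1 KO mice for the floxed Akt1 allele alone, and the AKT2 KO mice for the floxed Akt2 allele alone. The control mice carried the recombinase transgene with no floxed allele named in the labels. Every mouse, controls included, was heterozygous for MHC-mercremer, a Cre recombinase that the alpha-myosin heavy chain promoter drives in cardiomyocytes and that hydroxytamoxifen activates. All mice received 500 µg hydroxytamoxifen a day for 5 days at 3 months of age, and hearts were taken 21 days after induction with no further treatment. Because the promoter is a cardiomyocyte promoter, fibroblasts, endothelial cells and the other cells of the heart are not targeted by this design. A group without recombinase or without hydroxytamoxifen was not analysed here.

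In the heart, interstitial fibroblasts make most of the fibrillar collagen, and types I and III form the fibres between muscle bundles. Collagen chains are hydroxylated, glycosylated and folded into triple helices in the endoplasmic reticulum, exported, trimmed by proteinases and finally crosslinked by lysyl oxidases. Collagen IV is different: it forms a sheet-like network in the basement membrane around cardiomyocytes and vessels. Akt1 and Akt2 are serine/threonine kinases downstream of insulin and growth factor receptors.

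Shown here are 5 promoter stretches, chosen to show the variety of starts among these genes. Col1a2, Col3a1, Col6a1 and Col8a1 are members that rose in DKO hearts, and Col9a2 is a member that did not pass the test. Each is the 250 bases before the outermost annotated start of the gene, 5′ to 3′ on the gene's own strand, from RefSeq (build GRCm38.p6). Capitals mark CCAAT or TATAA, read on either strand.
Col1a2, chr6:4505368-4505617, plus strand: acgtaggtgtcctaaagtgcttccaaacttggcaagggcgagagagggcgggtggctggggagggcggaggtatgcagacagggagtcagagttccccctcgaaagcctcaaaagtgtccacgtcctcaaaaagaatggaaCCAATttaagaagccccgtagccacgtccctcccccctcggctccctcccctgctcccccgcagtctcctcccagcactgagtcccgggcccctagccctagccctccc
Col3a1, chr1:45311288-45311537, plus strand: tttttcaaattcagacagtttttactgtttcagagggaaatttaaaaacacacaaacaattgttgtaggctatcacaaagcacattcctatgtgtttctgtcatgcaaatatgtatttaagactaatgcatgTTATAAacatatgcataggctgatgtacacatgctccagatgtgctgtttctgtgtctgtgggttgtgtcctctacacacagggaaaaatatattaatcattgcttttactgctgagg
Col6a1, chr10:76726045-76726294, minus strand: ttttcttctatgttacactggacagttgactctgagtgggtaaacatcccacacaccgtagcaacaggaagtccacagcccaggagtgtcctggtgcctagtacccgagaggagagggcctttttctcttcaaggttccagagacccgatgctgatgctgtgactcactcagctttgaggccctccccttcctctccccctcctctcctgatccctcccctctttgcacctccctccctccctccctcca
Col8a1, chr16:57754738-57754987, minus strand: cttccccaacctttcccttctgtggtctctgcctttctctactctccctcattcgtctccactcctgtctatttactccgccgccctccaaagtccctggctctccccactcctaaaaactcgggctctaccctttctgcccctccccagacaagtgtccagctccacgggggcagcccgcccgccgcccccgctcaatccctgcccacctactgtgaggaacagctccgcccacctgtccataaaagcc
Col9a2, chr4:121039316-121039565, plus strand: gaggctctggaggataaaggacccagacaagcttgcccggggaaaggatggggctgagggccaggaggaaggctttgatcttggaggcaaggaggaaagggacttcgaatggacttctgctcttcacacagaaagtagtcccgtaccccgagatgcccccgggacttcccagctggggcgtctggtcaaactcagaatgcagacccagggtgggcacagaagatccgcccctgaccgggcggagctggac
One CCAAT begins 109 bases before the start of Col1a2, while the Col3a1 stretch holds TTATAA, which reads as TATAA on both strands. G and C make up 35.2% of the Col3a1 stretch, against 62% of the Col1a2 stretch, and the GC box GGGCGG occurs 4 times on either strand near Col8a1. The table of such stretches had an entry for 35 of the 44 genes, and in 23 of them the start it uses lies inside the annotated gene, so the counts that follow are over 250 bases before that start. Among the 11 genes with an entry that rose in DKO hearts, 4 held CCAAT, 2 held TATAA and 8 held GGGCGG, on either strand. Among the other 24 collagen genes with an entry the counts were 8, 5 and 13, and among 27025 genes of the table the shares were 34.5%, 23.5% and 32.9%. These are counts of letters in a window, with no statement about any factor.

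The 75th percentile of the intensities lay between 492.1 and 809.4 units, and 24403 to 30568 of 56605 probes were well above background. All values below are log2 intensities relative to that percentile of the same array, so 0 is the percentile and 1 unit is a 2-fold difference. Values are comparable between hearts for 1 gene, not between genes. All 10 cardiomyocyte markers were well above background on all 16 arrays. The Akt2 probe lay at 2.82 to 3.04 in DKO hearts and 2.43 to 2.64 in AKT2 KO hearts, against 4.51 to 4.89 in AKT1 KO hearts and 4.83 to 4.98 in control hearts. For the Akt1 probe the groups overlapped (5.03 to 5.21 in DKO hearts and 4.86 to 5.43 in AKT1 KO hearts, against 5.05 to 5.30 in AKT2 KO hearts and 5.09 to 5.17 in control hearts), and since its position relative to the deleted exons is not given in the sources used here, it checks nothing about Akt1.

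DKO replicate 3 stood apart. Its median absolute deviation from the mean of the other arrays of its group, over all tested genes, was 0.376. The same measure was 0.174 to 0.180 for the other DKO arrays and 0.081 to 0.224 for the 12 arrays of the other groups. Values without it are given beside those it moved by more than 1.5 times. The arrays lay on 2 slides with 2 arrays of each group on each, so slide does not coincide with group. Each group always occupied 1 column of the slides, and column and group cannot be told apart.

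Collagens were tested by limma with Benjamini-Hochberg adjustment over all 13727 genes, at a threshold of 0.05. In the main fit 15 of 27 rose in DKO hearts relative to control hearts and none fell. That is 55.6% of the members called, all higher, where 45.6% of all tested genes were called, 24.4% higher and 21.1% lower. The median difference of the 27 was 0.56, against 0.017 for all tested genes. Among the 15, 9 were at least 2-fold higher. In 14 of the 15, all 4 DKO arrays lay above all 4 control arrays, and in 13 they lay above all 12 other arrays. These counts describe genes already called on the same values. The matching shares over all tested genes are not given here, so the counts add no support to the calls. No tested collagen owed its place in the test to the DKO group alone. In bulk RNA, more collagen-producing cells and more collagen RNA per cell cannot be told apart.

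**Figure D1:**
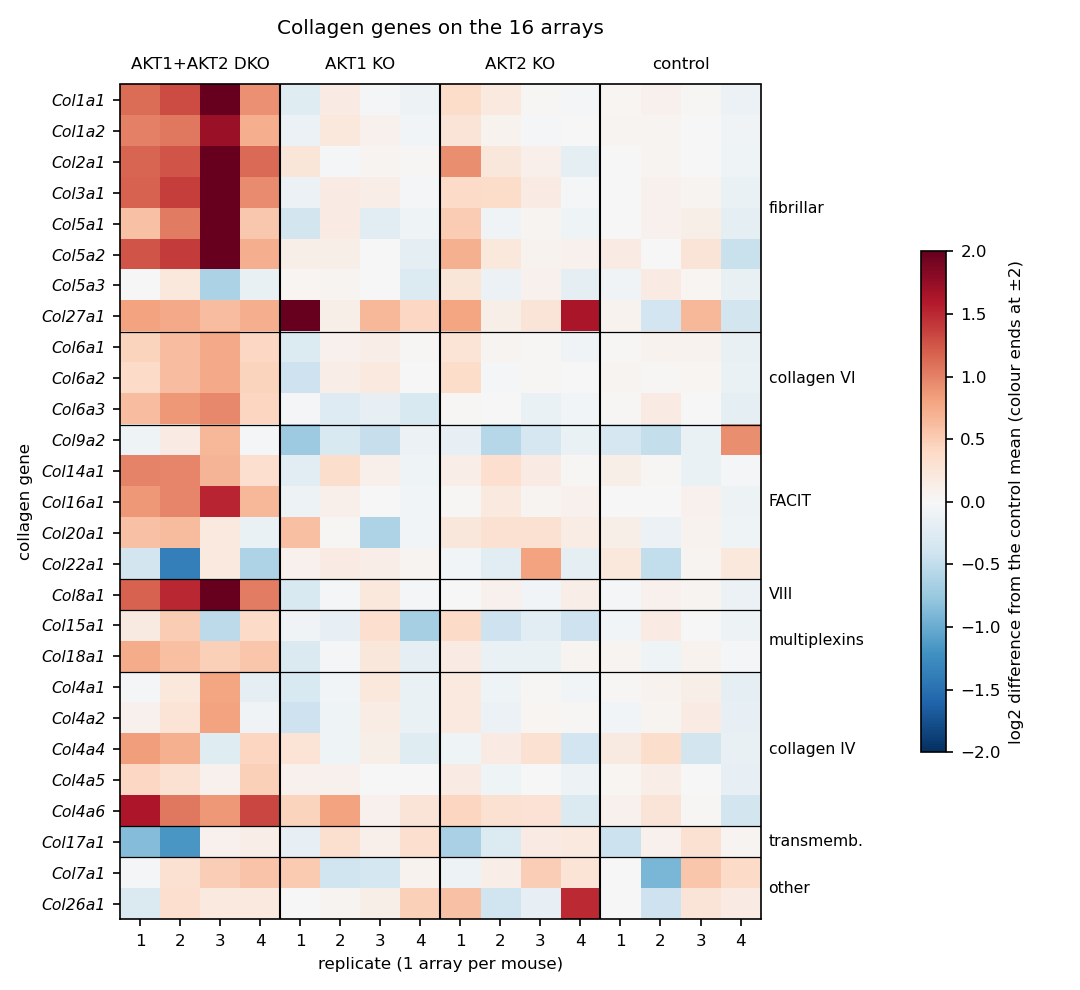
Heat map of the 27 tested collagen genes (rows, by class) on the 16 arrays (columns, replicates 1 to 4 of each group); colour is the log2 difference from the mean of the 4 control arrays. The DKO columns are red for most fibrillar and all collagen VI rows, with replicate 3 deepest for Col1a1, Col3a1 and Col8a1. Col4a1 and Col4a2 are red in replicate 3 and pale in the other DKO columns, and Col5a3 is blue in replicate 3.

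Among the classes with more than 1 tested gene, the fibrillar collagens had the largest median difference between DKO and control hearts. Of 8 tested, 6 rose, and the median of the 8 was 1.24. Col1a1, the first chain of collagen I, lay at 3.45, 3.65, 4.46 and 3.25 in DKO hearts, against 2.10, 2.50, 2.32 and 2.24 in AKT1 KO hearts, 2.70, 2.53, 2.37 and 2.31 in AKT2 KO hearts and 2.38, 2.42, 2.36 and 2.22 in control hearts. Every DKO array was above every other array, and replicate 3 was the highest. The mean was 3.70 ± 0.529 in DKO hearts and 2.34 ± 0.0846 in control hearts (SD, n = 4 each), a log2 difference of 1.36 ± 0.195 (SE), or 2.56-fold (limma adjusted p = 6.67e-05). The second Col1a1 probe gave 1.44, and without DKO replicate 3 the difference was 1.11.

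Col1a2, the partner chain in the collagen I trimer, had 5.67, 5.72, 6.38 and 5.38 in DKO hearts, against 4.54, 4.87, 4.75 and 4.61 in AKT1 KO hearts, 4.91, 4.73, 4.64 and 4.66 in AKT2 KO hearts and 4.71, 4.71, 4.65 and 4.59 in control hearts. It rose by 1.12 ± 0.157 (SE), 2.18-fold (limma adjusted p = 5.36e-05), with no overlap between DKO and any other group. Col3a1, the single chain of collagen III, which mixes with collagen I in the same fibrils, had 4.60, 4.80, 5.57 and 4.37 in DKO hearts, against 3.30, 3.58, 3.56 and 3.39 in AKT1 KO hearts, 3.81, 3.78, 3.59 and 3.38 in AKT2 KO hearts and 3.42, 3.51, 3.48 and 3.29 in control hearts. Its difference from control was 1.41 ± 0.193 (SE), 2.66-fold (limma adjusted p = 4.32e-05). Within each array Col3a1 moved with Col1a1: the log2 distance between the 2 probes had an SD of 0.0226 over the DKO arrays, 0.0704 over the AKT1 KO arrays, 0.0847 over the AKT2 KO arrays and 0.0364 over the control arrays, and its group mean changed by 0.05. The distance between Col1a1 and Col1a2 shifted by 0.23 in the same comparison.

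Collagen V sits inside type I fibrils and limits their diameter. Col5a1 had 2.05, 2.51, 3.82 and 2.01 in DKO hearts, against 1.11, 1.63, 1.24 and 1.39 in AKT1 KO hearts, 1.98, 1.40, 1.52 and 1.39 in AKT2 KO hearts and 1.47, 1.55, 1.59 and 1.28 in control hearts. The groups barely separated in replicates 1 and 4 of the DKO group, whose values were near the highest AKT2 KO value of 1.98, whereas replicate 3 was far above. The difference was 1.13 ± 0.303 (SE, limma adjusted p = 0.00723), and 0.72 without DKO replicate 3 (adjusted p = 0.00265). Col5a2, the second chain, had -1.57, -1.43, 0.06 and -2.10 in DKO hearts, against -2.71, -2.71, -2.84 and -3.01 in AKT1 KO hearts, -2.12, -2.62, -2.76 and -2.74 in AKT2 KO hearts and -2.66, -2.82, -2.57 and -3.28 in control hearts. Only control replicate 4 fell short of the background criterion among the 16 arrays, and the difference was 1.57 ± 0.335 (SE, limma adjusted p = 0.00152), or 1.13 without DKO replicate 3. Col3a1 and Col5a2 lie 24624 bases apart on chromosome 1.

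Col5a3, the third and less widely used chain of collagen V, did not pass the test. It had 2.10, 2.32, 1.47 and 1.96 in DKO hearts, against 2.15, 2.17, 2.11 and 1.83 in AKT1 KO hearts, 2.35, 2.00, 2.20 and 1.93 in AKT2 KO hearts and 2.04, 2.28, 2.15 and 1.96 in control hearts, so the groups overlapped and DKO replicate 3, the highest array for the other chains, was the lowest. The difference from control was -0.15 ± 0.156 (SE, 95% interval -0.48 to 0.19, limma adjusted p = 0.47), an interval that ends below the estimate for Col5a1, and 0.02 without DKO replicate 3.

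Col2a1, best known as the collagen of cartilage, had -0.87, -0.78, 0.37 and -0.90 in DKO hearts, against -1.80, -2.08, -1.98 and -2.01 in AKT1 KO hearts, -1.11, -1.81, -1.94 and -2.24 in AKT2 KO hearts and -2.03, -1.98, -2.05 and -2.13 in control hearts. All DKO arrays were above all other arrays, although at the low end of the signal range. It rose by 1.5 ± 0.258 (SE, limma adjusted p = 0.00029), and by 1.20 without DKO replicate 3. Col27a1, a fibrillar collagen of cartilage, was dim: it was well above background on 3 DKO, 4 AKT1 KO and 4 AKT2 KO arrays and on none of the 4 control arrays. Against the detection floor its level was at least 1.62-fold higher in DKO hearts, at least 1.72-fold in AKT1 KO hearts and at least 1.59-fold in AKT2 KO hearts, with limma adjusted p-values of 0.141, 0.694 and 1.0. Each single-knockout bound leaned on 1 array, being 1.29-fold without AKT1 KO replicate 1 and 1.28-fold without AKT2 KO replicate 4. The gene passed in none of these comparisons, and the measured means were -3.82, -3.73 and -3.84 in these groups, against -4.54 in control hearts.

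**Figure D2:**
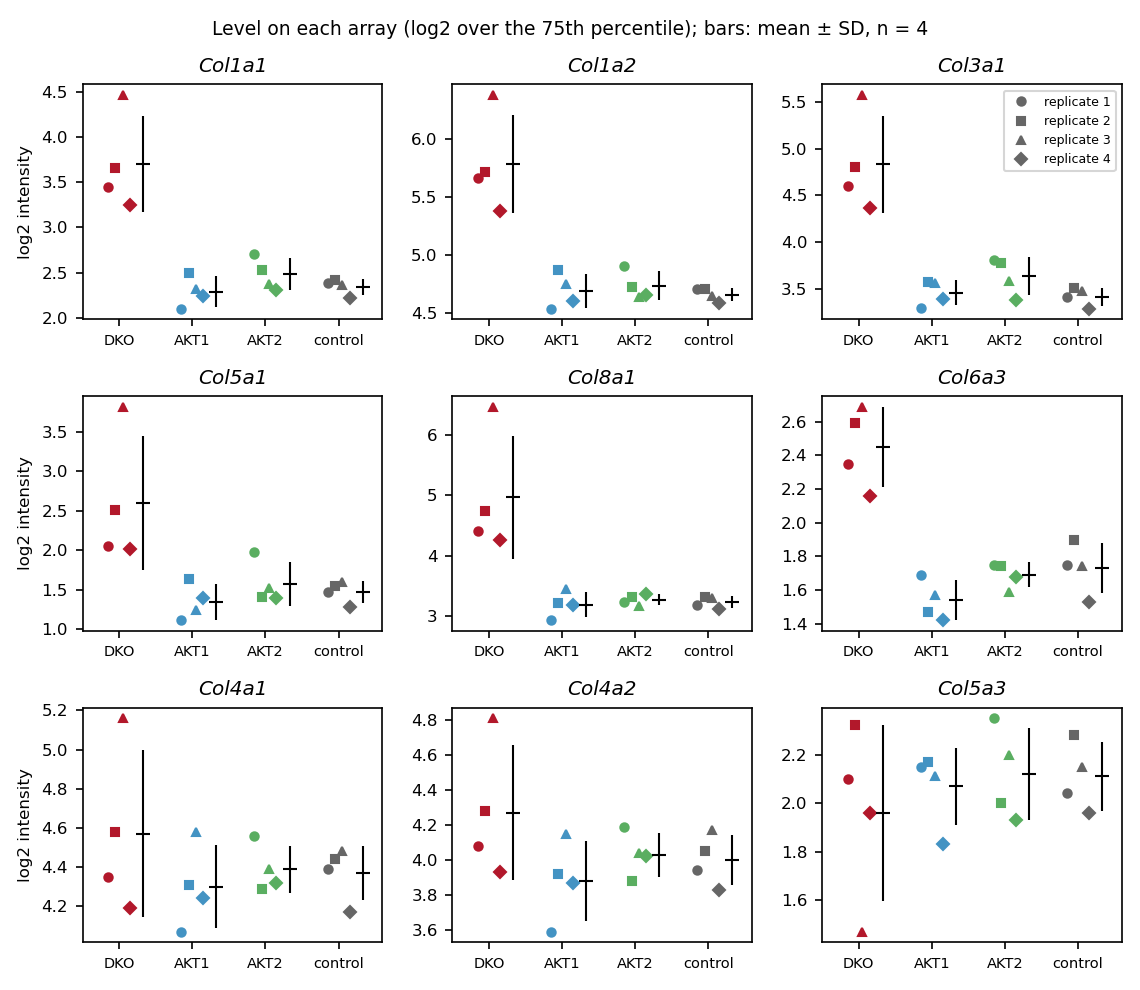
Log2 intensity relative to the array's 75th percentile for 9 collagen genes, 1 point per heart (marker shape gives the replicate) with mean ± SD beside each group (n = 4), DKO at left and control at right; the vertical scale differs between panels and does not start at 0. DKO points lie above all others for Col1a1, Col1a2, Col3a1, Col5a1, Col8a1 and Col6a3, and overlap them for Col4a1, Col4a2 and Col5a3, where replicate 3 is the highest, the highest and the lowest point.

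Of the 5 tested chains of collagen IV, 2 rose, and the median of the 5 was 0.315. The 2 major chains Col4a1 and Col4a2, which assemble together in nearly all basement membranes, did not pass the test. Col4a1 had 4.35, 4.58, 5.16 and 4.19 in DKO hearts, against 4.07, 4.31, 4.58 and 4.24 in AKT1 KO hearts, 4.56, 4.29, 4.39 and 4.32 in AKT2 KO hearts and 4.39, 4.44, 4.48 and 4.17 in control hearts. DKO replicates 1 and 4 lay inside the control range, and replicates 2 and 3 above it. The difference was 0.20 ± 0.171 (SE, 95% interval -0.17 to 0.57, limma adjusted p = 0.358), and 0.00 without DKO replicate 3 (adjusted p = 0.987). For Col4a2 the values were 4.08, 4.28, 4.81 and 3.93 in DKO hearts, against 3.59, 3.92, 4.15 and 3.87 in AKT1 KO hearts, 4.19, 3.88, 4.04 and 4.02 in AKT2 KO hearts and 3.94, 4.05, 4.17 and 3.83 in control hearts, with a difference of 0.28 ± 0.164 (SE, 95% interval -0.07 to 0.63, limma adjusted p = 0.183), or 0.10 without DKO replicate 3 (adjusted p = 0.536). Both intervals end below the estimate for Col1a1.

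The 2 genes overlap by 85 bases at their starts on chromosome 8, and the distance between their probes changed by 0.08 between DKO and control hearts. Set against Col4a1 on the same array, Col1a1 stood 1.16 higher in DKO than in control hearts: the log2 distance was -0.94 to -0.71 on DKO arrays and -2.12 to -1.95 on control arrays, with no overlap. This is a description of unequal change and was not tested.

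The minor collagen IV chains, which build the alpha3-alpha4-alpha5 and alpha5-alpha6 networks of selected basement membranes, were mixed. Col4a5 rose by 0.32 ± 0.0931 (SE, limma adjusted p = 0.0126): it had 0.43, 0.32, 0.11 and 0.49 in DKO hearts, against 0.10, 0.10, 0.02 and 0.01 in AKT1 KO hearts, 0.19, -0.07, 0.01 and -0.08 in AKT2 KO hearts and 0.06, 0.15, 0.02 and -0.14 in control hearts. Its DKO and control arrays overlapped, since DKO replicate 3 was lower than control replicate 2. Neither slide alone passed (adjusted p = 0.0888 and 0.174). Col4a6, which lies 1274 bases from Col4a5 on the X chromosome, had -2.36, -2.92, -3.12 and -2.64 in DKO hearts, against -3.53, -3.18, -3.90 and -3.73 in AKT1 KO hearts, -3.55, -3.67, -3.69 and -4.27 in AKT2 KO hearts and -3.89, -3.73, -3.95 and -4.34 in control hearts. It was well above background on 4 DKO and 4 AKT1 KO arrays, 3 AKT2 KO arrays and 2 control arrays, and rose by 1.22 ± 0.204 (SE, limma adjusted p = 0.00023), although with normexp background correction the difference was 0.56.

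Col4a4 had -1.71, -1.83, -2.78 and -2.11 in DKO hearts, against -2.26, -2.63, -2.42 and -2.79 in AKT1 KO hearts, -2.63, -2.38, -2.24 and -2.93 in AKT2 KO hearts and -2.36, -2.19, -2.90 and -2.69 in control hearts, a difference of 0.43 ± 0.228 (SE, limma adjusted p = 0.135). Here DKO replicate 3 was the lowest DKO array, and without it the gene passed at 0.66 (adjusted p = 0.012). Col4a3, which overlaps Col4a4 by 114 bases, met the background criterion on 3 DKO, 3 AKT1 KO, 3 AKT2 KO and 2 control arrays and was not tested with the others. Its values were -3.35 to -2.76 in DKO hearts, -4.02 to -3.54 in AKT1 KO hearts, -4.04 to -3.56 in AKT2 KO hearts and -4.00 to -3.46 in control hearts, and a fit with no filter gave a DKO minus control difference of 0.70 (limma adjusted p = 0.0117).

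All 3 widely expressed chains of collagen VI, which forms beaded filaments next to the basement membrane, rose in DKO hearts. Col6a1 had 4.12, 4.29, 4.42 and 4.08 in DKO hearts, against 3.40, 3.75, 3.81 and 3.69 in AKT1 KO hearts, 3.95, 3.72, 3.69 and 3.6 in AKT2 KO hearts and 3.69, 3.74, 3.74 and 3.52 in control hearts, and rose by 0.55 ± 0.108 (SE, 1.47-fold, limma adjusted p = 0.000814). Col6a2 had 1.71, 1.94, 2.09 and 1.78 in DKO hearts, against 0.92, 1.46, 1.53 and 1.32 in AKT1 KO hearts, 1.69, 1.30, 1.35 and 1.32 in AKT2 KO hearts and 1.39, 1.35, 1.37 and 1.19 in control hearts, and rose by 0.56 ± 0.131 (SE, limma adjusted p = 0.00302). For Col6a1 the 4 DKO arrays lay above the other 12. For Col6a2 they did so narrowly, since the lowest DKO array at 1.71 came close to AKT2 KO replicate 1 at 1.69.

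The third chain, Col6a3, had 2.35, 2.59, 2.69 and 2.16 in DKO hearts, against 1.69, 1.47, 1.57 and 1.42 in AKT1 KO hearts, 1.75, 1.74, 1.59 and 1.68 in AKT2 KO hearts and 1.75, 1.90, 1.74 and 1.53 in control hearts. The DKO arrays were clear of the rest, with a difference of 0.72 ± 0.113 (SE, 1.65-fold, limma adjusted p = 0.000133). A second, dimmer Col6a3 probe rose by 0.58. The spread within the DKO group was small for all 3 chains (SD 0.161, 0.169 and 0.24), and replicate 3, though highest, was close to replicate 2. Col6a4, Col6a5 and Col6a6 were not well above background on any array.

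FACIT collagens do not form fibrils but sit on their surface. Of 9, 5 were tested and 2 rose. Col16a1 had 1.88, 2.00, 2.54 and 1.69 in DKO hearts, against 0.92, 1.12, 1.02 and 0.97 in AKT1 KO hearts, 1.05, 1.21, 1.08 and 1.10 in AKT2 KO hearts and 1.02, 1.03, 1.11 and 0.92 in control hearts, a rise of 1.01 ± 0.134 (SE, 2.01-fold), and its adjusted p of 3.49e-05 by limma was the lowest of the 27 members. No DKO array overlapped another group. Col14a1 had -1.64, -1.66, -1.95 and -2.29 in DKO hearts, against -2.86, -2.28, -2.53 and -2.72 in AKT1 KO hearts, -2.50, -2.29, -2.47 and -2.60 in AKT2 KO hearts and -2.51, -2.60, -2.77 and -2.65 in control hearts. It rose by 0.75 ± 0.146 (SE, limma adjusted p = 0.000825), with normexp correction by 0.49, and DKO replicate 4 overlapped the highest AKT1 KO and AKT2 KO arrays while staying above the control arrays.

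Col9a2, a cartilage FACIT chain, ranged over -2.47 to -1.72 in DKO hearts, -3.11 to -2.50 in AKT1 KO hearts, -2.96 to -2.52 in AKT2 KO hearts and -2.86 to -1.46 in control hearts, a DKO minus control difference of 0.18 (95% interval -0.37 to 0.74), or 0.02 without DKO replicate 3. Col20a1 gave 0.33 (-0.12 to 0.77). Col22a1, found at muscle-tendon junctions, gave -0.54 (-1.15 to 0.07) and ranged over -4.90 to -3.35 in DKO hearts, -3.48 to -3.38 in AKT1 KO hearts, -3.76 to -2.74 in AKT2 KO hearts and -4.03 to -3.33 in control hearts, with 2 of 4 DKO arrays well above background. Without DKO replicate 3 it passed as lower, at -0.78 (adjusted p = 0.0239). With array quality weights Col22a1 passed as lower (-0.75, limma adjusted p = 0.0295) and Col20a1 as higher (0.5, adjusted p = 0.00833). Col9a1, Col9a3, Col12a1 and Col19a1 were not tested.

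The largest difference among the 27 tested members belonged to Col8a1, a short-chain network collagen of vessel walls and valves: it had 4.41, 4.73, 6.46 and 4.25 in DKO hearts, against 2.93, 3.21, 3.44 and 3.19 in AKT1 KO hearts, 3.23, 3.32, 3.17 and 3.37 in AKT2 KO hearts and 3.19, 3.32, 3.29 and 3.11 in control hearts. Replicate 3 was far above the other DKO arrays, and those 3 DKO arrays were still above all 12 arrays of the other groups. The difference was 1.74 ± 0.34 (SE, 3.33-fold, limma adjusted p = 0.000827), and 1.24 without replicate 3 (adjusted p = 2.66e-06). Its partner chain Col8a2 met the background criterion on 3 DKO arrays (values on the 4 were -3.15, -3.36, -2.92 and -3.49) and on none of the other 12, where values ran from -5.64 to -4.42 in AKT1 KO, -6.32 to -4.53 in AKT2 KO and -5.81 to -4.68 in control hearts. That placed it at least 2.72-fold higher in DKO than in AKT1 KO hearts, at least 3.4-fold higher than in AKT2 KO hearts and at least 3.72-fold higher than in control hearts, for a probe that missed the filter of the main test. A fit with no such filter gave an adjusted p of 0.00069 (limma) for DKO against control. Col10a1, the network collagen of growth plate cartilage, was not well above background on any array.

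Of the 2 multiplexins of vascular and epithelial basement membranes, Col18a1 passed the test and Col15a1 did not. A difference between the 2 genes was not tested. Col18a1, whose C-terminal fragment is endostatin, had 1.44, 1.30, 1.17 and 1.25 in DKO hearts, against 0.41, 0.68, 0.92 and 0.52 in AKT1 KO hearts, 0.86, 0.56, 0.57 and 0.75 in AKT2 KO hearts and 0.75, 0.62, 0.77 and 0.66 in control hearts. It rose by 0.59 ± 0.108 (SE, 1.51-fold, limma adjusted p = 0.000448), with tight DKO values and no overlap. Col15a1 ranged over -3.06 to -2.03 in DKO hearts, -3.19 to -2.19 in AKT1 KO hearts, -2.95 to -2.14 in AKT2 KO hearts and -2.63 to -2.36 in control hearts. Its difference was 0.13 (95% interval -0.38 to 0.65, limma adjusted p = 0.683), an interval that includes the estimate for Col18a1. For Col15a1 DKO replicate 3 was the lowest DKO array, and without it the difference was 0.36 (adjusted p = 0.184).

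The remaining tested members did not pass. Col17a1, the transmembrane collagen of hemidesmosomes, ranged over -4.18 to -2.89 in DKO hearts, -3.19 to -2.68 in AKT1 KO hearts, -3.67 to -2.83 in AKT2 KO hearts and -3.45 to -2.71 in control hearts, a difference of -0.45 (-1.05 to 0.15). Col7a1, the collagen of anchoring fibrils, differed by 0.33 (-0.27 to 0.93), and Col26a1 by 0.11 (-0.56 to 0.78). All 3 intervals include 0 and are wide. In other fits Col17a1 passed as lower in DKO than in control hearts. It did so with array quality weights (-0.8, limma adjusted p = 0.00952) and within slide 1 alone (-0.83, adjusted p = 0.022).

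**Figure D3:**
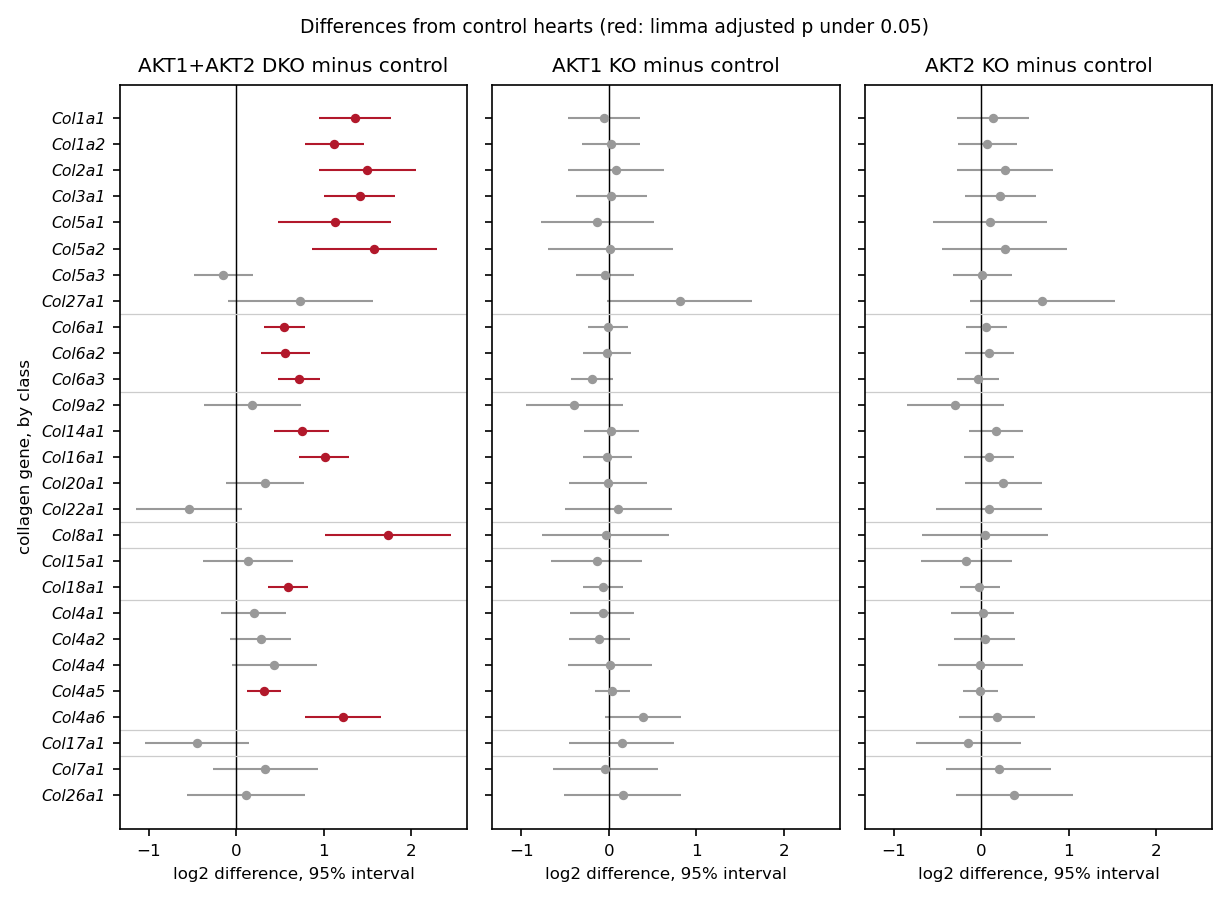
Log2 difference from control hearts with its 95% interval for the 27 tested collagen genes, ordered by class, in DKO (left), AKT1 KO (middle) and AKT2 KO hearts (right); red marks limma adjusted p under 0.05. The DKO panel holds 15 red points, all above 0, and the other panels hold none.

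Of the 17 genes left out of the test, 9 (Col6a4, Col6a5, Col6a6, Col9a3, Col10a1, Col11a1, Col19a1, Col24a1 and Col28a1) were not well above background on any array with any probe. Col11a2 and Col13a1 each passed on 12 arrays, 3 in every group. Col23a1 passed on 3 DKO, 3 AKT1 KO, 2 AKT2 KO and 1 control array. Col25a1 was bright on 1 AKT1 KO array (-1.41) and 1 control array (-1.11) and on no other. Col9a1 met the criterion on 1 DKO, 2 AKT1 KO and 1 AKT2 KO array.

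Col12a1, a FACIT collagen, had 2 dim probes that disagreed. One was well above background on 2 DKO arrays only, with -4.09, -4.50, -1.10 and -5.25 in DKO hearts against -6.39 to -5.27 in control hearts, at least 2.62-fold higher, or at least 1.42-fold without replicate 3. The other averaged -4.76 ± 1.31 in DKO hearts and -3.85 ± 0.478 in control hearts (SD, n = 4 each). No direction can be given for this gene.

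By class, the median of the members measured on all 16 arrays was taken on each array, relative to the control mean. The 6 fibrillar genes gave 0.81 to 2.13 on the DKO arrays, -0.12 to 0.15 on AKT1 KO arrays, -0.06 to 0.37 on AKT2 KO arrays and -0.13 to 0.08 on control arrays. Collagen VI gave 0.43 to 0.77 on DKO arrays and -0.15 to 0.07 on control arrays. Collagen IV, with 4 genes, gave 0.18 to 0.44 on DKO arrays and -0.16 to 0.10 on control arrays. The lowest fibrillar median of a DKO heart thus exceeded the highest collagen VI and collagen IV medians of any heart. FACIT genes gave 0.34 to 0.98 on DKO arrays and -0.14 to 0.01 on control arrays. These class values are descriptions of 1 to 6 genes each and carry no test.

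**Figure D4:**
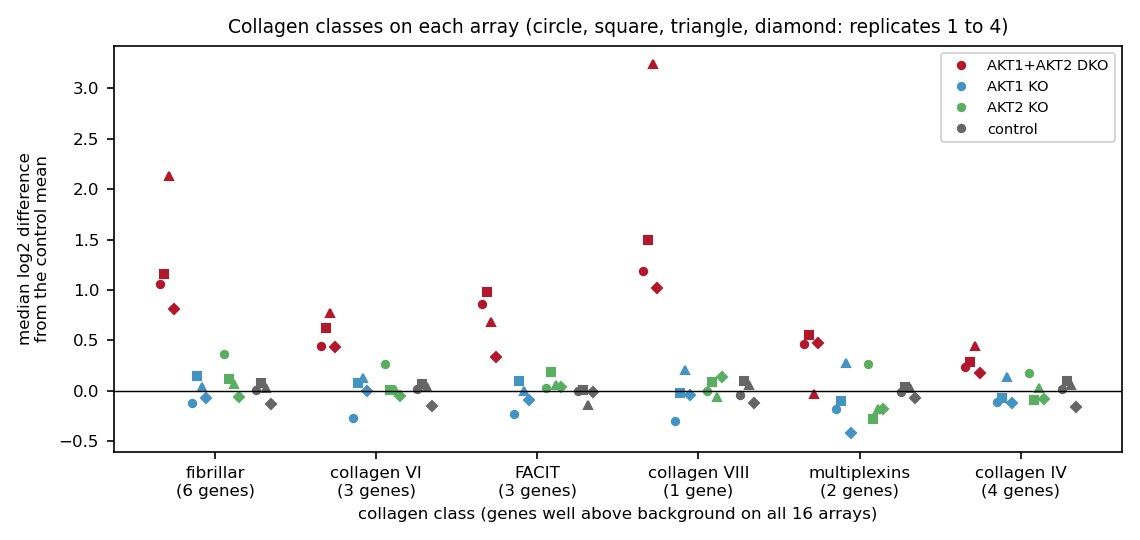
Median log2 difference from the control mean on each of the 16 arrays for 6 collagen classes (genes well above background on all arrays; colours give the group, marker shapes the replicate). DKO arrays lie above the control arrays in every class shown except the multiplexins, where replicate 3 falls among them.

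In the single knockouts no collagen passed. For AKT1 KO against control, 0 of 27 were called by limma, where 0.794% of all tested genes were, 0 had an unadjusted p under 0.05, and the lowest adjusted p was 0.694. Differences of the 22 genes measured on all arrays ran from -0.40 (Col9a2) to 0.16 (Col26a1), and their 95% intervals lay within -0.95 and 0.83. Col1a1 differed by -0.06 (-0.47 to 0.36), Col1a2 by 0.03 (-0.31 to 0.36), Col3a1 by 0.03 (-0.38 to 0.44) and Col4a1 by -0.07 (-0.44 to 0.29).

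For AKT2 KO against control, again 0 of 27 were called by limma, where 0.131% of all tested genes were, with 0 at an unadjusted p under 0.05. Differences of those 22 genes ran from -0.30 to 0.38, and their intervals lay within -0.85 and 1.05. Col1a1 differed by 0.13 (-0.28 to 0.55), Col3a1 by 0.22 (-0.19 to 0.63) and Col8a1 by 0.04 (-0.68 to 0.77). AKT2 KO replicate 1 was the highest array of its group for Col1a1, Col1a2, Col2a1, Col3a1, Col5a1, Col5a2 and the 3 collagen VI chains. For Col8a1 the intervals reached up to 0.69 in AKT1 KO hearts and 0.77 in AKT2 KO hearts, both short of a 2-fold change.

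Set directly against each single knockout, the same 15 genes were higher in DKO hearts and no other collagen passed in the fit without blocks. With slide as a block Col17a1 also passed as lower against AKT1 KO hearts (-0.60, limma adjusted p = 0.0356). With slide and row as a block, Col17a1 was again lower against AKT1 KO hearts (limma adjusted p = 0.043). In that fit Col22a1 was lower against both AKT1 KO and AKT2 KO hearts (adjusted p = 0.0311 and 0.0402) and Col4a2 was higher against AKT1 KO hearts (0.0406). Against AKT1 KO hearts, 15 of 27 were called by limma, where 47.0% of all tested genes were called, 26.7% higher and 20.3% lower. The differences included 1.41 ± 0.195 for Col1a1, 1.38 ± 0.193 for Col3a1, 1.77 ± 0.34 for Col8a1 and 0.91 ± 0.113 for Col6a3 (SE), with adjusted p-values between 1.85e-05 (Col6a3) and 0.0237 (Col4a5) over the 15. Against AKT2 KO hearts, 15 of 27 were called, where 42.1% of all tested genes were called, 23.5% higher and 18.6% lower. Here Col1a1 differed by 1.22 ± 0.195, Col3a1 by 1.19 ± 0.193, Col8a1 by 1.69 ± 0.34 and Col6a3 by 0.76 ± 0.113 (SE). Both comparisons use the same 4 DKO hearts. Against AKT1 KO hearts Col4a5 lost its call when DKO replicate 1 or 4 or AKT1 KO replicate 3 or 4 was left out. In fits restricted to the pair of groups, the limma adjusted p against AKT1 KO hearts was 0.0852 for Col4a5, and against AKT2 KO hearts it was 0.054 for Col4a5 and 0.0775 for Col5a1.

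The interaction term asks whether the log2 change in DKO hearts exceeds the sum of the changes in the 2 single knockouts. By limma, 9 of 27 members departed from that sum, all upward, where 26.0% of all tested genes departed, 15.9% upward and 10.1% downward. The departure was 1.28 ± 0.276 for Col1a1, 1.02 ± 0.223 for Col1a2, 1.16 ± 0.272 for Col3a1, 1.16 ± 0.365 for Col2a1, 0.50 ± 0.153 for Col6a1, 0.95 ± 0.159 for Col6a3, 0.93 ± 0.19 for Col16a1, 0.68 ± 0.152 for Col18a1 and 1.73 ± 0.481 for Col8a1 (SE). Col6a3 had the lowest adjusted p, 0.00073, and Col2a1 the highest, 0.0304. Col5a1 and Col5a2, with departures of 1.16 and 1.29, missed the threshold (adjusted p = 0.0595 and 0.0576), and passed without DKO replicate 3, at 0.75 and 0.85. The call of Col2a1 was kept in 8 of 16 fits that left out 1 array and that of Col6a1 in 12. Both calls were also lost within slide 1 alone (limma adjusted p = 0.15 and 0.183) and with no filter on dim probes (0.0675 and 0.0658). That of Col6a1 was lost with the authors' values (0.0502), and that of Col18a1 within slide 1 (0.0898). Without DKO replicate 3 the count was 13 (12 higher and Col22a1 lower), and within slide 2 alone it was 0. The shares of all tested genes that departed under these settings are not given here.

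Of the 6 lists of processing and partner genes, crosslinking had the largest median. In DKO against control hearts 45.6% of all tested genes were called, 24.4% higher and 21.1% lower, and the called shares of the modification (8 of 17), export (4 of 9) and basement membrane (6 of 13) lists were close to that. Loxl4, P3h2 and Cidec entered the test through the DKO group alone, where they were bright, so their calls are no support. Counts over the genes measured on all 16 arrays leave them out. The lists were written from textbook roles, with earlier results of these data known. The 3 lysyl oxidases measured on all 16 arrays, Lox, Loxl1 and Loxl2, rose in DKO against control hearts. Lox averaged 0.06 ± 1.89 in DKO hearts and -2.30 ± 0.0578 in control hearts (SD, n = 4 each), a difference of 2.36 (limma adjusted p = 0.00587) that was 1.42 without DKO replicate 3. Loxl1 rose by 1.0 ± 0.199 (SE) and Loxl2 by 1.08 ± 0.347 (SE), the second by 0.57 without replicate 3. Loxl4 was well above background on all 4 DKO arrays and on no control array, at least 6.47-fold higher. Its call is left out, since the DKO group alone brought it into the test. Over the 3 genes measured on all 16 arrays the list's median was 1.08, against 0.0291 for all genes so measured. With Loxl4 included it was 1.72, against 0.017 for all tested genes, and 1.07 without DKO replicate 3.

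Among modification and folding genes, 7 of 17 rose and 1 fell, with a median of 0.24, and 6 of the 16 measured on all 16 arrays rose. P4hb, protein disulphide isomerase and the beta subunit of prolyl 4-hydroxylase, averaged 4.13 ± 0.164 in DKO hearts and 2.92 ± 0.0312 in control hearts (SD, n = 4 each), a difference of 1.21 (limma adjusted p = 2.89e-07). The prolyl 3-hydroxylase P3h2 was at least 3.25-fold higher in DKO hearts, with no control array well above background, and P3h3 and the cyclophilin Ppib rose by 0.53 and 0.48. P3h4 fell by 0.56. In procollagen export and trimming, 3 of 9 rose: Adamts2, the N-propeptidase, by 1.44 ± 0.201 (SE), Pcolce2 by 0.96 ± 0.0924 and Pcolce, an enhancer of the C-propeptidase, by 0.77 ± 0.132. Mia2, an export factor, fell by 0.40. Pcolce2 was the 1 gene of these lists that also passed in AKT1 KO hearts, where it rose by 0.43 (limma adjusted p = 0.0436).

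Partners of the fibril rose in 7 of 10 cases, median 0.60. Decorin (Dcn) rose by 0.52 ± 0.0759, biglycan (Bgn) by 0.87 ± 0.143, dermatopontin (Dpt) by 0.68 ± 0.0803 and fibronectin (Fn1) by 0.89 ± 0.163 (SE). Basement membrane partners were split, with 3 of 13 higher, 3 lower and a median of 0.04. The laminin chains Lama5 and Lamb3 fell by 1.02 and 1.12, and Lama3 fell by 0.92, or by 0.51 without DKO replicate 3. Of 8 collagen receptors and uptake genes, 4 rose: the uptake receptor Mrc2 by 0.95 ± 0.118, the collagen-binding kinase Ddr1 by 1.20 ± 0.151, Lair1 by 0.68 ± 0.236 and integrin beta 1 (Itgb1) by 0.38 ± 0.132 (SE), the last by 0.20 without DKO replicate 3. In the single knockouts none of these genes except Pcolce2 in AKT1 KO hearts was called.

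**Figure D5:**
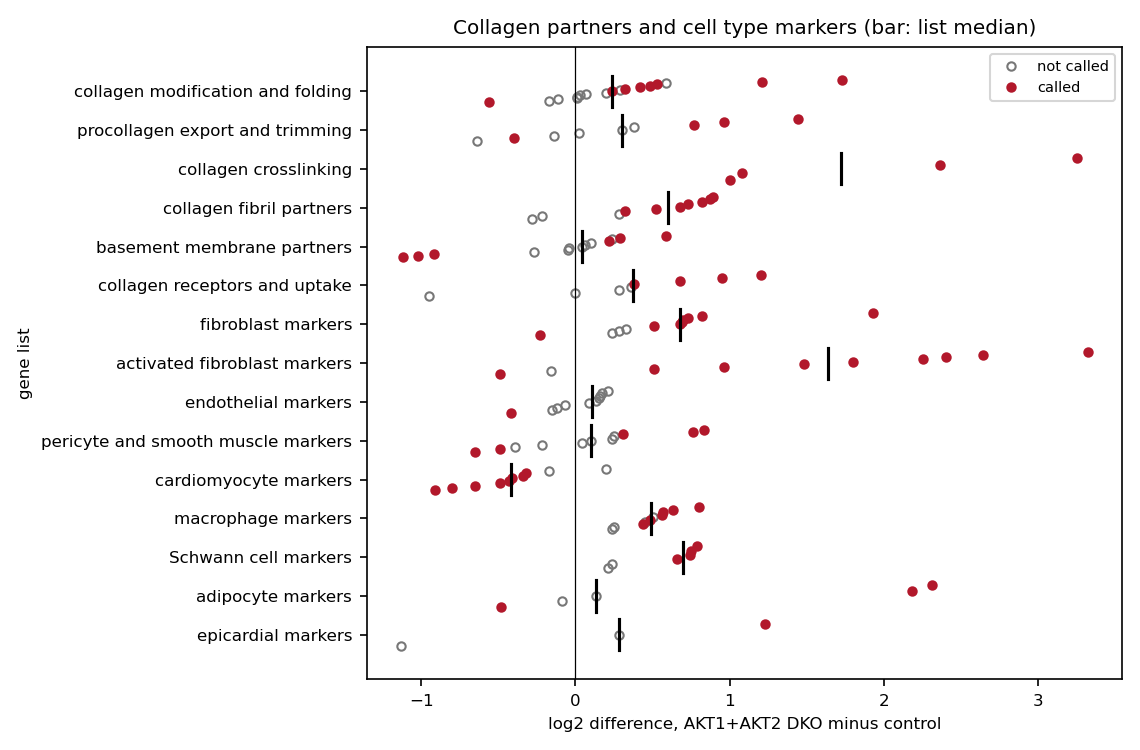
Log2 difference between DKO and control hearts for each tested gene of 15 lists, 6 of collagen processing and partners and 9 of cell type markers; filled red points passed limma's test at adjusted p under 0.05, open points did not, and the vertical bar is the list's median. Crosslinking and activated fibroblast lists lie furthest right, and most cardiomyocyte markers lie left of 0. Loxl4, P3h2 and Cidec, which entered the test through the DKO group alone, are plotted. Over genes measured on all 16 arrays the crosslinking median is 1.08 and the activated fibroblast median 1.64.

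Cell type markers were set beside the collagens in the same hearts, and their part in the collagen result was not tested. Of all tested genes, 45.6% were called in DKO against control hearts, 24.4% higher and 21.1% lower. Of 11 fibroblast markers, 7 rose (Pdgfra by 0.69, Pi16 by 0.82, Mfap5 by 1.93 and 1.36 without DKO replicate 3) and 1 fell, and the list's summed level was 359 to 493 times the 75th percentile in DKO hearts and 371 to 412 times in control hearts. A summed level adds the linear intensities of different probes, so the brightest probes weigh most in it. Dpt and Lum stand in the fibroblast list and among the fibril partners, and Ddr2 and Acta2 also stand in 2 lists each. Of 10 tested activated fibroblast markers, 8 rose, among them Timp1 by 3.32, Cilp by 2.64, Ltbp2 by 2.40 and Thbs4 by 1.80, and Acta2 fell by 0.49. Their summed level was 74.1 to 144 in DKO hearts and 77.4 to 84.3 in control hearts, with Cthrc1 and Tnc too dim to test. Macrophage markers rose in 6 of 10 cases (sum 37.8 to 52.1 in DKO and 31.6 to 35.5 in control hearts), and Schwann cell markers in 4 of 6 (2.32 to 3.85 in DKO and 1.95 to 2.43 in control hearts).

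Cardiomyocyte markers fell in 8 of 10 cases, including Ryr2 by 0.91, Tnni3 by 0.65 and Pln by 0.80, and summed to 2990 to 3590 in DKO and 3740 to 4230 in control hearts. Endothelial markers gave 0 higher and 1 lower (Kdr, by 0.42, or 0.25 without DKO replicate 3) of 10, with sums of 240 to 300 in DKO and 221 to 255 in control hearts. Pericyte and smooth muscle markers gave 3 higher and 2 lower of 11, close to the 45.6% called among all tested genes. Their sums were 125 to 166 in DKO and 158 to 169 in control hearts. DKO replicate 3 had the highest sums of the fibroblast, activated fibroblast and endothelial lists and also of the adipocyte list (107, against 45.2 to 48.5 in control hearts) and the epicardial list (7.22, against 1.79 to 2.12). Among adipocyte markers 2 of 5 rose, Cidec among them, and 1 fell, while of the 3 measured on all 16 arrays 0 rose and 1 fell. Of 3 epicardial markers 1 (Aldh1a2) rose. The adipocyte and epicardial counts rest on few genes. Adipoq, Plin1, Retn, Upk3b, Upk1b, Lrrn4, Krt19 and Bnc1 were too dim to test.

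Without DKO replicate 3, 51.1% of all tested genes were called in DKO against control hearts, 28% higher and 23.1% lower. The counts were then collagens 16 higher (Col4a4 added) and 1 lower (Col22a1) of 27, crosslinking 4 of 4, modification 9 higher and 1 lower of 17, export 3 higher and 2 lower of 9, fibril partners 8 of 10, basement membrane partners 3 higher and 3 lower of 13, and receptors 6 of 8. Fibroblast markers became 10 higher and 1 lower of 11, activated fibroblast markers 7 higher and 1 lower of 10, and cardiomyocyte markers 8 lower of 10. Macrophage markers became 6 higher of 10, Schwann cell markers 5 of 6, endothelial markers 1 higher and 1 lower of 10, pericyte and smooth muscle markers 6 higher and 2 lower of 11, adipocyte markers 2 higher and 1 lower of 5, and epicardial markers 1 higher of 3. Loxl4, P3h2 and Cidec, which entered the test through the DKO group alone, are in the crosslinking, modification and adipocyte counts. The fibrillar median over 8 genes was then 1.02 and that of collagen VI 0.49. The collagen IV median was 0.39, above its value with all arrays, with 3 of 5 chains higher, and the FACIT median was 0.37.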

How the data were processed

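Total RNA from 16 heart apices (100 ng each) was labelled with Cy3 and hybridised to 1-colour Agilent arrays, per the labels' protocols. The authors deposited scanner output made with Agilent Feature Extraction 12.0.3.1, per the file headers, and its processed signal is an intensity that the software had already background-corrected. The authors also deposited a table of log2 values, which served as an alternative. Its columns had medians of -0.024 to 0.013, and its values followed each probe's deviation from its median over the arrays in the scanner data (correlation 0.916 to 0.996, slope 0.88 to 1.013 by array). It thus holds values centred per probe with the same direction, and its normalization is not given in the sources used here.

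Here each intensity was divided by its array's 75th percentile and log2-transformed. Control spots and spots marked as outliers were left out, and spots of a probe were averaged. Probes were named through their RefSeq accession (32994 of 56605 probes, 58.3%), with symbols from the RefSeq gene table, assembly GRCm38.p6. A probe was kept if at least 1 group had it well above background, as the scanner software calls it, in all 4 hearts, and the brightest kept probe stood for its gene. Probes were compared between groups with limma 3.58.1 (R 4.3.3) in 1 fit over 16 arrays with a mean per group, and p-values were Benjamini-Hochberg adjusted over 13727 genes in each comparison. Where no array of a group was well above background, a fold is given as a lower bound against that detection floor. That bound compares group means over all 4 hearts and makes no allowance for the spread between them. Replicates are separate hearts per the labels. Replicate numbers were not used to pair the samples in the main fit, and a fit with them as a block served as an alternative.

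Named genes are all 44 collagens, with array values for those called and for the 6 brightest, and up to 4 called genes with the lowest p from each other list, except for an item that is not reported here. The members, lists and tests were chosen with earlier results of these data known. The number of arrays limits the precision. Alternatives covered background correction, normalization, filters, probe choice, weights, slides, replicate blocks and leaving out each array.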

Additional observations from a re-analysis of the deposited data

Results flagged for a closer look

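In the 108 groups of 4 arrays checked over the tested collagens, 3 single arrays lay far from the other 3 of their group by Dixon's criterion, where chance gives about 1 in 20. Col2a1 in DKO replicate 3 was 0.37, and the other DKO arrays were -0.90 to -0.78. Col6a2 in AKT2 KO replicate 1 was 1.69, against 1.30 to 1.35 in the other AKT2 KO hearts. Col22a1 in AKT2 KO replicate 3 was -2.74, against -3.76 to -3.6.

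For 9 collagens the change in DKO hearts differed from the sum of the 2 single-knockout changes, tested as an interaction in limma. The log2 departures were 1.28 for Col1a1, 1.02 for Col1a2, 1.16 for Col2a1, 1.16 for Col3a1, 0.50 for Col6a1, 0.95 for Col6a3, 1.73 for Col8a1, 0.93 for Col16a1 and 0.68 for Col18a1. Adjusted p-values ran from 0.00073 (Col6a3) to 0.0304 (Col2a1).

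Signal also appeared in genes that did not reach the brightness needed for the test. Col8a2 was at least 3.72-fold higher in DKO than in control hearts. Col12a1, with 1 of its 2 probes and mostly through DKO replicate 3, was at least 2.62-fold higher in DKO than in control hearts, at least 1.42-fold without that array, while its other probe averaged lower in DKO hearts, so it has no direction. For Col9a1 the AKT1 KO mean was 1.18-fold above the control values raised to the detection floor, or 1.04-fold without AKT1 KO replicate 1. Its probe was well above background on 2 of 4 AKT1 KO arrays and on no control array. A fit with no filter gave an adjusted p of 0.989 (limma), so a rise is not established.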

How the results depend on the processing

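Of 1659 refits of the called members, 1597 stayed past the threshold in the same direction, 62 kept the direction but lost the threshold, and 0 turned direction. Within slide 2 alone, with 2 arrays a group, the counts were 7 for DKO against control, 7 for DKO against AKT2 KO and 0 for the departure from additivity. For DKO against control, 18.0% of all tested genes were called within slide 2, against 45.6% in the main fit. Array quality weights raised the departures to 19 (17 higher, 2 lower). With these weights DKO against control also gave 19 (17 higher, and Col17a1 and Col22a1 lower), where 60.2% of all tested genes were called. Leaving out 1 array at a time gave 15 to 17 calls for DKO against control, 14 to 18 against AKT1 KO, 15 to 17 against AKT2 KO and 7 to 13 departures, with 0 to 0 for AKT1 KO against control and for AKT2 KO against control. Leaving out 1 array, 38.4% to 51.1% of all tested genes were called for DKO against control. For the other comparisons such shares under these settings are not given here. The cause of the shifts in these counts was not tested, beyond the smaller number of arrays. With the replicate number as a block the counts were 15 against control, 18 against AKT1 KO (16 higher, with Col4a2 added, and Col17a1 and Col22a1 lower), 16 against AKT2 KO (15 higher, and Col22a1 lower) and 11 departures, with 0 in each single knockout. With that block 46.2% of all tested genes were called for DKO against control. Hearts with the same number correlated in their deviations at -0.35 to 0.392 (median 0.142). Hearts with other numbers gave -0.374 to 0.315 (median -0.0773), and hearts on the same slide and row -0.0367 to 0.392 (median 0.176). The main fit did not use the numbers as pairs. With normexp, Col4a6 fell short of 2-fold (0.56). Genes near background, such as Col22a1, Col27a1 and Col12a1, are limited by signal over background. Class medians moved beyond the replicate spread in 6 of 972 refits: for collagen VI to 0.81 against AKT1 KO within slide 2, and 0.31 and 0.76 as departures within slides 1 and 2, and for FACIT collagens as departures to 0.45 with normexp, 0.59 within slide 1 and 0.56 without control replicate 4. Leaving arrays out of the class medians, and DKO replicate 3 out of the partner and marker lists, and arrays out of the lower bounds, was chosen after seeing the data.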
